A study of Mus musculus with 4 samples.

Results

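Collagen genes encode the alpha chains of the triple-helical proteins that give extracellular matrix its strength. They were followed here in RNA of sorted mature olfactory sensory neurons of mice, in which 42 genes carry a symbol of the form Col, number, a, number. The deposited table lists 28168 loci in all, and 44 of its rows matched this pattern. Col11a1 and Col4a3 each had a second row with the same coordinates, and the row with the higher mean of both groups was kept. The joined row of Col7a1 and Mir711 does not match the pattern and is not a member. Neither is Emid2, an older symbol of Col26a1. Of the 42 collagen genes, 14 were tested by the authors and 28 were not, with no failed test.

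Nd1 is a transgenic line, and the series title says that its mice express double-stranded RNA encoded in the genome. The Nd1 group comprised 2 libraries, both from mice heterozygous for Nd1, for a tTA transactivator placed at Omp with an internal ribosome entry site, and for a GFP reporter placed at Omp in the same way. The control group also comprised 2 libraries with the GFP reporter. Of these, control replicate 1 had the Nd1 allele but no tTA, and control replicate 2 had tTA but no Nd1 allele. Mice of replicate 1 were aged 212 days and mice of replicate 2 were aged 87 days, in Nd1 and control alike. Omp, the olfactory marker protein gene, is active chiefly in mature olfactory sensory neurons, so tTA is placed under that gene's control in the Nd1 mice. Control replicate 2 thus had the same Omp alleles as the Nd1 mice, and control replicate 1 did not. The sources used here do not say how many mice entered a library.

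Each gene has a single FPKM value per group, that is, fragments per kilobase of transcript and scaled to the number of mapped fragments, computed by the authors from both libraries of the group. Single libraries cannot be read from it and the depth is unknown, so every level below stands without an error. Calls are those of the authors' deposited table from Cuffdiff at q under 0.05, and rose and fell are used only for genes that passed it. The authors tested 14841 loci and called 34.4% of them, 15.1% higher in Nd1 and 19.2% lower. Of the markers of mature olfactory sensory neurons, Omp stood at 605 FPKM in Nd1 and 4087 FPKM in control, and the channel subunit Cnga2 at 486 FPKM in Nd1 and 859.5 FPKM in control. In bulk RNA, fewer cells of a type and less RNA per cell cannot be told apart, and neither can a small share of matrix-producing cells and a low level in the neurons.

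Collagens fall into classes by the structures they build. Fibrillar collagens form the cross-striated fibres of connective tissue, and fibril-associated collagens lie on the surface of those fibres. Type IV chains form the network of basement membranes, type VI chains form beaded filaments, types VIII and X form hexagonal lattices, and the multiplexins (types XV and XVIII) sit in basement membrane zones. Transmembrane collagens span the plasma membrane of the cell that makes them. In the nasal mucosa most collagen is made by fibroblasts, bone and cartilage cells and vessels of the lamina propria and turbinates, below and beside the epithelium that holds the neurons.

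Collagen RNA was scarce in these sorted cells, and the largest difference in summed FPKM of a class lay in a single gene. Of the 42 members, 35 (83.3%) were under 1 FPKM in both groups, against 52.0% of all loci of the table. The median member stood at 0.140 FPKM in Nd1 and 0.143 FPKM in control. Among the 14 tested members 5 rose, 4 fell and 5 did not pass. The 5 that rose were Col10a1, Col18a1, Col2a1, Col9a2 and Col4a2, and the 4 that fell were Col27a1, Col4a4, Col17a1 and Col23a1. A low collagen such as Col10a1 could be tested only through the group in which it was high, so the share of tested members called is not read against the 34.4% of the table. The same holds for low genes of the other lists below. Their shares stand beside that of the table as a description only. The median of the tested members was -0.094 on the scale log2(FPKM + 1), Nd1 minus control, beside -0.058 over all tested loci.

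**Figure D1:**
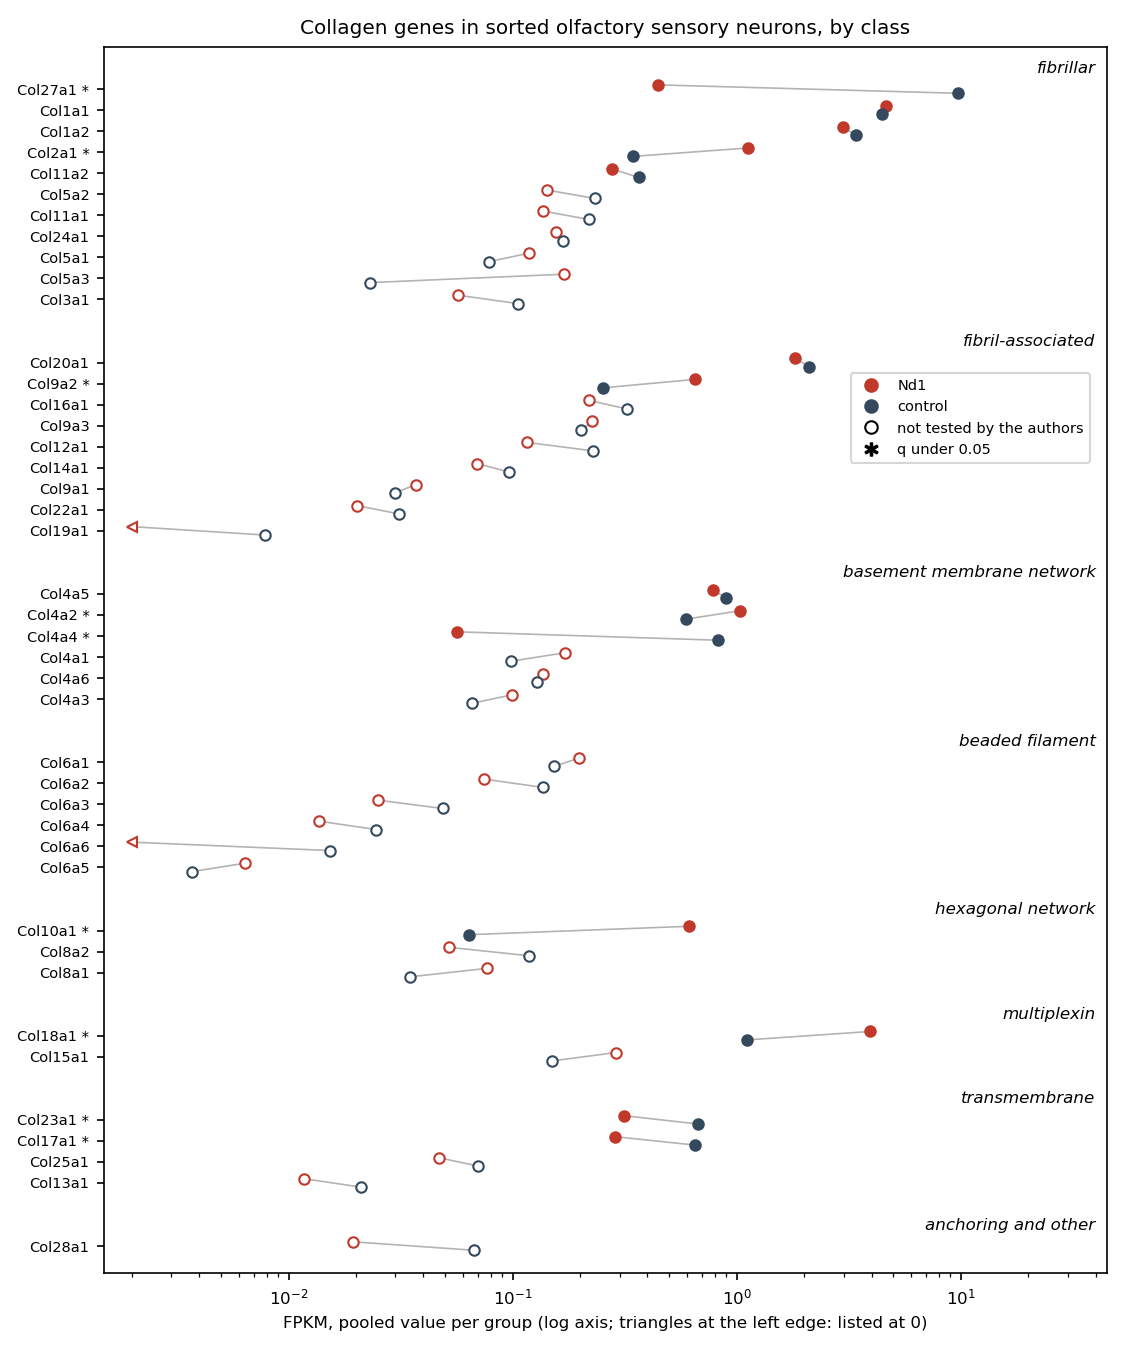
FPKM of every collagen gene on a log axis, Nd1 in red above control in blue, grouped by class. Filled points were tested by the authors, open points were not, asterisks mark q under 0.05, and triangles mark 2 genes listed at 0 in Nd1. Only 7 genes reach 1 FPKM in a group, and Col27a1 shows the widest gap among the tested genes.

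Fibrillar collagens held the largest part of the collagen RNA. The class of 11 genes summed to 10.2 FPKM in Nd1 and 19.2 FPKM in control. Of its 5 tested members 1 rose, 1 fell and 3 did not pass. Col27a1, a fibrillar chain of cartilage and developing epithelia (mm9 chr4:62876446-62996024), stood at 0.445 FPKM in Nd1 and 9.73 FPKM in control. It fell by 4.45 on the log2 scale in the authors' deposited table, a 21.9-fold lower level, with a q listed as 0. In control it was the most abundant collagen of the table, and in Nd1 it was below Col1a1, Col18a1, Col1a2, Col20a1 and several others. Its share of all collagen FPKM was 2.05% in Nd1 and 34.3% in control. Without it the fibrillar class summed to 9.80 FPKM in Nd1 and 9.42 FPKM in control, so the lower class sum in Nd1 rested on Col27a1.

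The chains of type I collagen, the main collagen of bone, tendon and dermis, did not follow it. Col1a1 had 4.65 FPKM in Nd1 and 4.48 FPKM in control (q = 0.869 in the authors' deposited table). Col1a2 had 2.97 FPKM in Nd1 and 3.40 FPKM in control (q = 0.533). The ratio of Col1a1 to Col1a2, whose products assemble into the same helix, was 1.57 in Nd1 and 1.32 in control. Col3a1, the type III chain that accompanies type I in soft connective tissue, was not tested, at 0.0571 FPKM in Nd1 and 0.106 FPKM in control. The type V chains, which regulate the width of type I fibrils, were also not tested. Col5a1 stood at 0.118 FPKM in Nd1 and 0.0788 FPKM in control, and Col5a2 at 0.142 FPKM in Nd1 and 0.234 FPKM in control. Col5a3 stood at 0.170 FPKM in Nd1 and 0.0231 FPKM in control, and the table lists an unadjusted p of 0.000305 for it but no call.

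Col2a1, the main collagen of cartilage (mm9 chr15:97806033-97835155), rose 3.25-fold, to 1.13 FPKM in Nd1 against 0.346 FPKM in control, with q = 3.61e-11 in the authors' deposited table. Neither of its cartilage partners of type XI was called. Col11a2 had 0.277 FPKM in Nd1 and 0.366 FPKM in control, and with q = 0.401 it was the nearest of the tested members above the threshold. Col11a1 was not tested, and its rows disagreed in direction. The row that was kept had 0.137 FPKM in Nd1 and 0.219 FPKM in control, while the other row at the same coordinates had 0.150 FPKM in Nd1 and 0.00890 FPKM in control. Col24a1, the remaining fibrillar gene, was not tested either, at 0.157 FPKM in Nd1 and 0.167 FPKM in control.

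**Figure D2:**
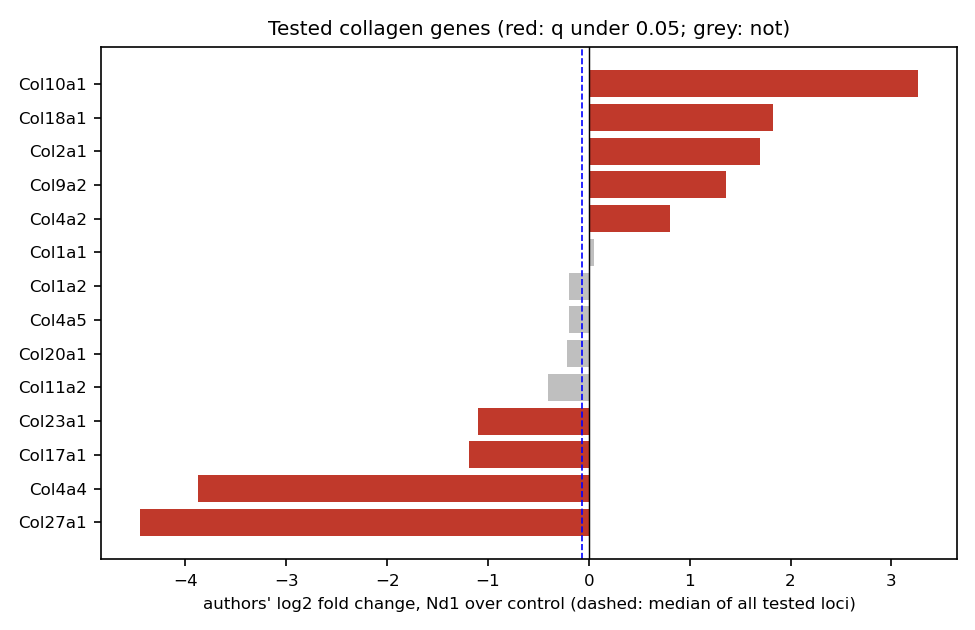
The authors' log2 fold change of Nd1 over control for the 14 tested collagen genes, with called genes in red and the others in grey. The dashed line is the median of all tested loci, -0.068, and the changes run between -4.45 for Col27a1 and 3.27 for Col10a1.

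Around Col27a1, other named loci moved in both directions. Within 150 kb of it 7 neighbouring loci were tested, of which 2 rose and 3 fell. The falls were those of Orm2, an acute-phase plasma protein gene (0.594 FPKM in Nd1, 1.38 FPKM in control), Akna, an AT-hook gene (23.7 FPKM in Nd1, 42.7 FPKM in control), and Whrn, a scaffold gene of sensory cells (15.1 FPKM in Nd1, 21.6 FPKM in control). Both rises were of loci named Zfp618, on the other side of Col27a1. The closest of these stood 76.3 kb away, with 1.61 FPKM in Nd1 and 0.898 FPKM in control. Mir455, which shares the Col27a1 locus, was listed at 0 in both groups, in libraries of polyadenylated RNA. Over the 9 called collagens together, 48 neighbouring loci were tested, of which 12 rose and 5 fell. Only the share called in either direction was near the 34.4% of the whole table. By direction, the whole table had 15.1% of loci higher and 19.2% lower.

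The RefSeq promoter windows (GRCm38.p6, 250 bases before to 50 after an annotated start) matched 34 of the 42 collagens. The window of Col27a1 is shown because it belongs to the collagen with the steepest fall, at chr4:63215162-63215461 on the plus strand. Capitals mark GC boxes, GGGCGG on either strand.

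Col27a1: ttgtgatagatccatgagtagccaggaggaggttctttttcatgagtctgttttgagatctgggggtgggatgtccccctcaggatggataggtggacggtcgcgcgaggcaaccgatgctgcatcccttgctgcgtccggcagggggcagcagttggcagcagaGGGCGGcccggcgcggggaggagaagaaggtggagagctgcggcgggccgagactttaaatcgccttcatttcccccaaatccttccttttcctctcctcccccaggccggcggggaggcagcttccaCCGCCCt

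This window holds 2 GC boxes and 61.7% G and C. The median G and C content was 60.0% over the collagen windows and 52.7% over all promoter windows of the table. A GC box stood in at least 1 window of 21 of the 34 collagens, and in 38.2% of all genes. On either strand CCAAT stood in 12 collagens and 41.1% of all genes, and TATAAA in 5 collagens and 15.7% of all genes. These motifs were chosen after the levels had been seen, and the searches describe letters in short windows only.

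Fibril-associated collagens, with 9 genes in the table, summed to 3.16 FPKM in Nd1 and 3.28 FPKM in control. Col20a1, a collagen first described in chick embryonic tissues, held more than any other of the class, with 1.82 FPKM in Nd1 and 2.11 FPKM in control (q = 0.584 in the authors' deposited table). Col9a2, a chain of type IX collagen that coats cartilage fibrils, rose 2.57-fold, to 0.655 FPKM in Nd1 against 0.254 FPKM in control (q = 0.00124). The other chains of that molecule were not tested. Col9a3 stood at 0.227 FPKM in Nd1 and 0.202 FPKM in control, and Col9a1 at 0.0372 FPKM in Nd1 and 0.0297 FPKM in control. In both groups the Col9a2 level therefore exceeded that of its partners, 2.88 times that of Col9a3 in Nd1 and 1.26 times in control. The other untested members, Col12a1, Col14a1, Col16a1, Col19a1 and Col22a1, all had the lower value in Nd1. The highest of them was Col16a1, with 0.219 FPKM in Nd1 and 0.322 FPKM in control, and Col19a1 was listed at 0 in Nd1. For Col12a1 (0.117 FPKM in Nd1, 0.229 FPKM in control) the table lists an unadjusted p of 0.0122 and no call.

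Type IV collagens, the network of basement membranes, showed opposite calls within a class. The 6 genes summed to 2.28 FPKM in Nd1 and 2.61 FPKM in control. Of 3 tested members, Col4a2 rose, Col4a4 fell and Col4a5 did not pass. Col4a2, which with Col4a1 makes the type IV molecule found in nearly all basement membranes, stood at 1.04 FPKM in Nd1 and 0.592 FPKM in control. Its rise of 1.75-fold had q = 0.0101 in the authors' deposited table, the called collagen nearest to the threshold. Col4a1 was not tested, with 0.170 FPKM in Nd1 and 0.0983 FPKM in control. The ratio of Col4a2 to Col4a1 was 6.09 in Nd1 and 6.03 in control, so the measured levels of both genes were higher in Nd1 by a similar factor, although only Col4a2 was tested.

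Col4a4 (mm9 chr1:82447298-82583424), a chain of the type IV molecule of specialised basement membranes such as that of the kidney glomerulus, had 0.0563 FPKM in Nd1 and 0.825 FPKM in control. It fell by 3.87 on the log2 scale in the authors' deposited table, a 14.7-fold lower level, with a q listed as 0. The Nd1 value of Col4a4 was the lowest of any called collagen. Like the control value of Col10a1 it was under 0.1 FPKM, so the folds of both genes rest on a low value. The partners of Col4a4 in its type IV molecule are Col4a3 and Col4a5. Col4a3 was not tested, with 0.0991 FPKM in Nd1 and 0.0657 FPKM in control. Col4a5 had 0.783 FPKM in Nd1 and 0.898 FPKM in control (q = 0.633). The ratio of Col4a5 to Col4a4 was 13.9 in Nd1 and 1.09 in control. Col4a6, the last type IV gene, was not tested, with 0.137 FPKM in Nd1 and 0.128 FPKM in control.

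Type IV genes lie in head-to-head pairs, with starts on opposite strands. In the GENCODE M21 annotation (GRCm38) the annotated starts of Col4a1 and Col4a2 lie 21 bases apart, those of Col4a3 and Col4a4 lie 72 bases apart and those of Col4a5 and Col4a6 lie 1309 bases apart. The pairs differed in their values. In Nd1 both genes of the Col4a1 pair had the higher level, while of the Col4a3 pair Col4a4 fell and Col4a3 stood, untested, at the higher value. The listed Col4a3 locus also spans Mff, a mitochondrial fission gene at 63.0 FPKM in Nd1 and 55.5 FPKM in control, so the assignment of reads within it is uncertain. Windows are shown for the pair whose ratio of levels differed least between groups and for Col4a4, which fell. They lie, for Col4a1, at chr8:11312777-11313076 on the minus strand, for Col4a2 at chr8:11312555-11312854 on the plus strand, and for Col4a4 at chr1:82586800-82587099 on the minus strand. Capitals mark GC boxes and CCAAT on either strand.

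Col4a1: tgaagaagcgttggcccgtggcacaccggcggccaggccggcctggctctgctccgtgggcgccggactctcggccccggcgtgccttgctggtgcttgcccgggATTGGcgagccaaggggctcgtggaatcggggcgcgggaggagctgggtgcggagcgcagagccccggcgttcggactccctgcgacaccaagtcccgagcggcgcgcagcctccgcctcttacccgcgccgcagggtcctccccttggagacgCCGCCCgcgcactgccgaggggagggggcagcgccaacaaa
Col4a2: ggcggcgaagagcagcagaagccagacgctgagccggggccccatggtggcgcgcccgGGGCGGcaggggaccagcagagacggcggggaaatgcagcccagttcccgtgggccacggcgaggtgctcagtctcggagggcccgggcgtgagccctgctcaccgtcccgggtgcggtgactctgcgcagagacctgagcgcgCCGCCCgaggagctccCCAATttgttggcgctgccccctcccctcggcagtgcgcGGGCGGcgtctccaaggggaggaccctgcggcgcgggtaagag
Col4a4: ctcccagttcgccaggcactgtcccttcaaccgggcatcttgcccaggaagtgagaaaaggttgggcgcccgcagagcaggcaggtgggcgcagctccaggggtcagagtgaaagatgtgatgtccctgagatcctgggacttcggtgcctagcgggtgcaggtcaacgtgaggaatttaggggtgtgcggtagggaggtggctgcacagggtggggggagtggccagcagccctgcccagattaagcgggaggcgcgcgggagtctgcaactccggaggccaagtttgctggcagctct

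The windows of Col4a1 and Col4a2 overlap by 78 bases, in which each is the reverse complement of the other. They hold 74.0% and 73.7% G and C, with 37 and 33 CpG dinucleotides. Both carry a CCAAT motif and at least 1 GC box. The only GC box of the Col4a1 window lies in the overlap, so the same bases are counted in the Col4a2 window too. The Col4a4 window has 63.3% G and C, 14 CpG dinucleotides and none of the 3 motifs searched.

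The multiplexins were the class with the largest summed rise in FPKM. The pair summed to 4.25 FPKM in Nd1 and 1.26 FPKM in control. Col18a1, whose carboxyl end releases endostatin and which also carries heparan sulfate chains (mm9 chr10:76514924-76629275), rose 3.55-fold, to 3.96 FPKM in Nd1 against 1.11 FPKM in control, with a q listed as 0 in the authors' deposited table. It held 18.3% of all collagen FPKM in Nd1 and 3.92% in control. Col15a1, the other multiplexin, was not tested, with 0.291 FPKM in Nd1 and 0.150 FPKM in control and a listed unadjusted p of 0.0112. Of 4 tested neighbours within 150 kb of Col18a1, 3 rose, beside 15.1% of all tested loci. None of the 9 tested neighbours of Col23a1 and the 3 of Col4a2 rose. Around Col10a1 and Col17a1 2 of 6 each rose, and around Col27a1 2 of 7. Around Col2a1, Col9a2 and Col4a4 1 rose, of 6, 5 and 2 tested. The nearest to Col18a1 was Slc19a1, the reduced folate carrier, with 10.9 FPKM in Nd1 and 8.47 FPKM in control.

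Among the hexagonal network collagens, only Col10a1 was tested. Col10a1, the collagen of hypertrophic cartilage, rose 9.61-fold, to 0.612 FPKM in Nd1 against 0.0637 FPKM in control, with q = 1.28e-06 in the authors' deposited table. Its listed locus coincides with that of Nt5dc1, and in the GENCODE M21 annotation Col10a1 lies inside Nt5dc1 on the opposite strand. Nt5dc1 had 6.84 FPKM in Nd1 and 8.03 FPKM in control and fell (q = 0.0330). The labels do not say that strand was kept, so reads of both genes may not be separable. Col8a1 and Col8a2, chains of the lattice under corneal and vascular endothelium, were not tested. Col8a1 stood at 0.0768 FPKM in Nd1 and 0.0350 FPKM in control, and Col8a2 at 0.0522 FPKM in Nd1 and 0.118 FPKM in control.

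Both tested transmembrane collagens fell. Col17a1, a hemidesmosome component that anchors basal epithelial cells, fell to 0.286 FPKM in Nd1, against 0.652 FPKM in control (2.28-fold lower, q = 1.16e-05 in the authors' deposited table). Col23a1, whose ectodomain can be shed from the cell surface, fell to 0.313 FPKM in Nd1, against 0.673 FPKM in control (2.15-fold lower, q = 0.00209). Col25a1, the precursor of a component of amyloid plaques, and Col13a1, a collagen of cell adhesions and the neuromuscular junction, were not tested. They stood at 0.0467 and 0.0117 FPKM in Nd1, and at 0.0703 and 0.0211 FPKM in control. As a class the 4 genes summed to 0.657 FPKM in Nd1 and 1.42 FPKM in control.

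No type VI collagen was tested. The beaded filament chains are a product of fibroblasts and muscle interstitium, and their 6 genes summed to 0.317 FPKM in Nd1 and 0.383 FPKM in control. Col6a1 was the highest, with 0.198 FPKM in Nd1 and 0.153 FPKM in control, and Col6a6 was listed at 0 in Nd1. Col28a1, a collagen found in peripheral nerve, was not tested either, with 0.0195 FPKM in Nd1 and 0.0671 FPKM in control. Over all 28 untested collagens 11 had the higher value in Nd1 and 17 the lower, and none exceeded 0.322 FPKM in a group.

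All 42 collagens together summed to 21.7 FPKM in Nd1 and 28.4 FPKM in control. Without Col27a1 the sums were 21.2 FPKM in Nd1 and 18.7 FPKM in control, so the direction of the sum depended on that gene.

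**Figure D3:**
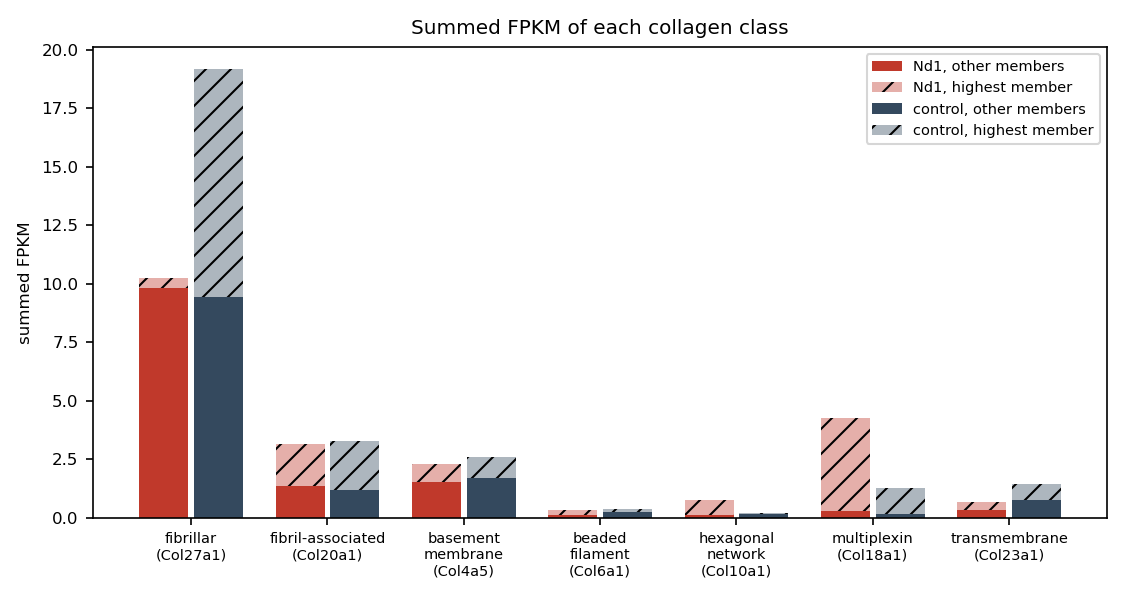
Summed FPKM of the collagen classes, Nd1 in red left of control in blue. Col28a1, which stands alone in its class, is not shown. The hatched part of a bar is the gene named under the class. The fibrillar bars, 10.2 FPKM in Nd1 and 19.2 FPKM in control, differ in their hatched part, and the multiplexin bars, 4.25 FPKM in Nd1 and 1.26 FPKM in control, are mostly Col18a1.

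Collagen chains need enzymes and chaperones in the endoplasmic reticulum before they can be secreted. Of 15 tested genes of that list 2 rose, 3 fell and 10 did not pass. The prolyl hydroxylase subunit P4ha1 fell to 4.21 FPKM in Nd1, against 7.03 FPKM in control. The lysyl hydroxylase Plod1 fell to 2.11 FPKM in Nd1, against 4.57 FPKM in control, and the collagen-specific chaperone Serpinh1 to 0.749 FPKM in Nd1, against 1.51 FPKM in control. The rises were those of another lysyl hydroxylase, Plod2 (0.774 FPKM in Nd1, 0.314 FPKM in control), and of Leprel4, a component of a collagen-modifying complex (2.00 FPKM in Nd1, 0.927 FPKM in control). On the log2(FPKM + 1) scale the median of the list was -0.035. The share called, 5 of 15, lay near the 34.4% of all tested loci.

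Outside the cell, propeptides are cut off and chains are cross-linked. Of 5 tested genes of that step 1 rose and 2 fell, beside 34.4% of all tested loci called. Pcolce2, an enhancer of propeptide cleavage, was the most abundant gene of the list and fell to 188 FPKM in Nd1, against 269 FPKM in control (q = 0.000241 in the authors' deposited table). The transglutaminase Tgm2 fell to 0.393 FPKM in Nd1, against 1.14 FPKM in control, and the lysyl oxidase Loxl1 rose to 0.857 FPKM in Nd1, against 0.290 FPKM in control. Of 11 tested collagen-cleaving proteases and their inhibitors 10 did not pass and 1 was called, beside 34.4% of all tested loci called. That gene was Timp3, a matrix-bound metalloprotease inhibitor, which fell to 0.904 FPKM in Nd1, against 1.81 FPKM in control.

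Of 10 collagen receptor genes with a row the authors tested 4, of which 2 rose and 2 fell, beside 34.4% of all tested loci called. Mrc2, an endocytic receptor that takes up collagen fragments (mm9 chr11:105153960-105212459), fell to 0.592 FPKM in Nd1, against 4.91 FPKM in control, an 8.30-fold lower level. Ddr1, a collagen-activated receptor kinase, fell to 1.99 FPKM in Nd1, against 2.99 FPKM in control. Gpr56, an adhesion receptor that binds type III collagen, rose to 9.74 FPKM in Nd1, against 2.04 FPKM in control, and the integrin subunit Itgb1 to 23.3 FPKM in Nd1, against 13.3 FPKM in control. Of the integrin subunits specific to collagen binding, Itga2, Itga10 and Itga11 were not tested, and Itga1 is not among the 10 genes with a row.

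Among other basement membrane genes 2 of 6 tested rose and 2 fell, beside 34.4% of all tested loci called. Agrn, a heparan sulfate proteoglycan, rose to 42.9 FPKM in Nd1, against 10.8 FPKM in control. The laminin chain Lama3 rose to 9.11 FPKM in Nd1, against 2.98 FPKM in control, whereas the laminin chains Lama5 (0.251 FPKM in Nd1, 0.555 FPKM in control) and Lamb2 (0.525 FPKM in Nd1, 0.941 FPKM in control) fell. Of 8 tested collagen-binding proteoglycans and matricellular genes 1 rose and 4 fell, beside 34.4% of all tested loci called. The rise was that of the matrilin Matn2, with 13.3 FPKM in Nd1 and 9.62 FPKM in control. The falls were those of Bgn (0.996 FPKM in Nd1, 1.85 FPKM in control), Ogn (0.514 FPKM in Nd1, 1.16 FPKM in control), Fmod (0.464 FPKM in Nd1, 1.06 FPKM in control) and Thbs1 (1.59 FPKM in Nd1, 2.49 FPKM in control). On the log2(FPKM + 1) scale these genes had a median of -0.337.

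Other genes encode a collagen-like stretch without a collagen symbol in the table, Emid2 (Col26a1) among them, and 7 of 37 such genes were tested. Of these 2 rose and 1 fell, beside 34.4% of all tested loci called. C1ql1, a synaptic ligand, rose to 0.526 FPKM in Nd1, against 0.0261 FPKM in control, and C1qtnf1 rose to 5.60 FPKM in Nd1, against 3.58 FPKM in control. Colec12, a scavenger receptor of vascular endothelium, fell to 0.371 FPKM in Nd1, against 0.849 FPKM in control. Of 8 tested genes of collagen transcription and TGF-beta signalling 1 rose and 2 fell, a share near the 34.4% of all tested loci. Tgfb2, a TGF-beta ligand, rose to 2.23 FPKM in Nd1, against 0.685 FPKM in control. Twist2, a bHLH factor of mesenchyme, fell to 0.331 FPKM in Nd1, against 8.52 FPKM in control. Sox9, the cartilage factor that activates Col2a1 and Col9a2, fell to 0.350 FPKM in Nd1, against 0.899 FPKM in control. The q of Sox9 was 0.0397 in the authors' deposited table.

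**Figure D4:**
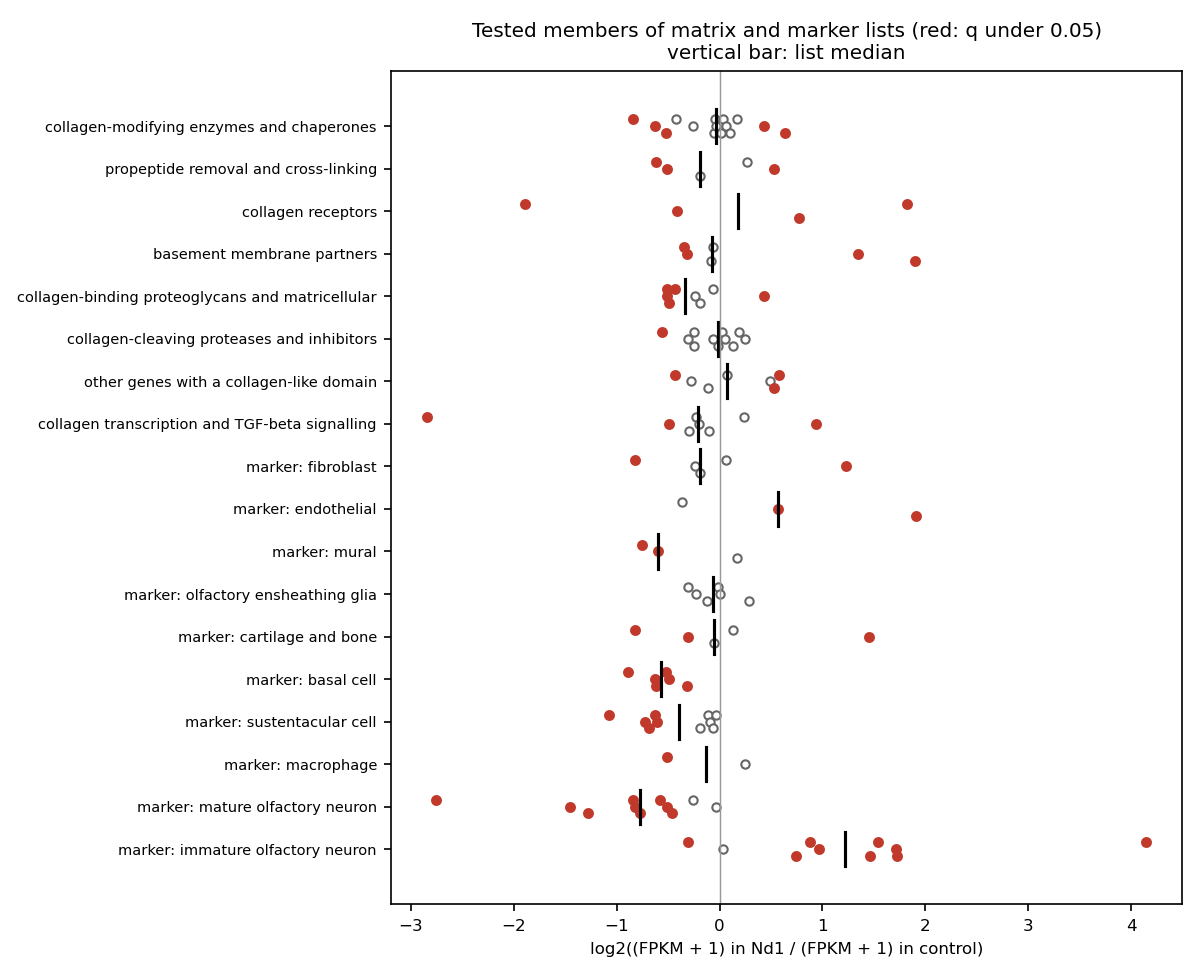
Change of each tested gene on the scale log2((FPKM + 1) in Nd1 / (FPKM + 1) in control), for 8 matrix lists and 10 marker lists. Red points passed q under 0.05, open points did not, and the vertical bar is the list median, which is 1.21 for immature and -0.777 for mature olfactory neuron markers.

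Markers of cells that make collagen were present at low levels in both groups. The 10 fibroblast markers summed to 6.22 FPKM in Nd1 and 5.78 FPKM in control, and the higher sum in Nd1 rested on Pi16. Of 5 tested, 1 rose, Pi16, and 1 fell, Pdgfra, beside 34.4% of all tested loci called. Pi16 stood at 2.65 FPKM in Nd1 and 0.557 FPKM in control. Pdgfra stood at 0.148 FPKM in Nd1 and 1.03 FPKM in control, and Dpt was listed at 0 in both groups. Dcn, the highest of the list in control, did not pass, at 2.46 FPKM in Nd1 and 3.09 FPKM in control. The 9 cartilage and bone markers in the table summed to 14.6 FPKM in Nd1 and 9.56 FPKM in control, and the higher sum in Nd1 rested on Lect1. Of 5 tested, 1 rose and 2 fell, beside 34.4% of all tested loci called. Of these Lect1 (chondromodulin) rose to 10.5 FPKM in Nd1, against 3.19 FPKM in control, whereas Spp1 (1.85 FPKM in Nd1, 4.03 FPKM in control) and Alpl (0.198 FPKM in Nd1, 0.483 FPKM in control) fell. Acan, which defines cartilage, was not tested, at 0.0700 FPKM in Nd1 and 0.0321 FPKM in control, and Matn1 was listed at 0 in control.

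The 10 mural cell markers summed to 9.49 FPKM in Nd1 and 14.0 FPKM in control. Of 3 tested, 2 fell, beside 19.2% of all tested loci. The 10 endothelial markers summed to 6.89 FPKM in Nd1 and 2.91 FPKM in control. Of 3 tested, 2 rose, beside 15.1% of all tested loci. They were Esam (3.38 FPKM in Nd1, 0.165 FPKM in control) and Pecam1 (2.68 FPKM in Nd1, 1.49 FPKM in control). The higher endothelial sum in Nd1 rested on these 2 genes together. The defining markers Cdh5 and Kdr were not tested, Cdh5 at 0.0385 FPKM in Nd1 and 0.0339 FPKM in control and Kdr at 0.0335 FPKM in Nd1 and 0.0391 FPKM in control. None of 6 tested ensheathing glia markers was called, and 1 of 2 tested macrophage markers, Ptprc, fell, beside 34.4% of all tested loci called. All 6 tested basal cell markers fell, beside 19.2% of all tested loci. The list of 8 genes summed to 7.63 FPKM in Nd1 and 15.6 FPKM in control. Only Cav1, which was not tested, had the higher value in Nd1, 0.227 FPKM against 0.176 FPKM in control. Krt5 stood at 3.86 FPKM in Nd1 and 8.03 FPKM in control, Krt14 at 1.33 FPKM in Nd1 and 2.29 FPKM in control, and the factor Trp63 at 0.847 FPKM in Nd1 and 1.85 FPKM in control, beside the fall of Col17a1, a gene of the same cells. Of 10 tested sustentacular cell markers 5 fell, beside 19.2% of all tested loci, and none rose. Their sums were 312 FPKM in Nd1 and 369 FPKM in control. Most of both sums was Sult1d1, which did not pass, at 234 FPKM in Nd1 and 254 FPKM in control. Cyp2g1, Cyp1a2 and Cyp2a4 did not pass either. The part of these other cells in the collagen values was not tested.

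The 12 markers of mature neurons summed to 7546 FPKM in Nd1 and 17721 FPKM in control. Of 11 tested, 9 were lower, beside 19.2% of all tested loci. The 10 markers of immature neurons summed to 1067 FPKM in Nd1 and 691 FPKM in control. Of 10 tested, 8 were higher and 1 lower, beside 15.1% and 19.2% of all tested loci. Their part in the collagen values was not tested either.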

How the data were processed

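Polyadenylated RNA of sorted mature olfactory sensory neurons was sequenced in 4 libraries, 2 Nd1 and 2 control, grouped by title. Per the submitters' processing notes, Bowtie, Cuffdiff 1.3.0 and build mm9 were used. Annotation and filters: not given in the sources used here. Deposited were the authors' pooled FPKM values, 1 per group, with a log2 fold change, p-value and q-value of Nd1 against control. Depth is unknown. Recomputed by Benjamini and Hochberg's method over the 14841 tested loci, the q-values came out within 1% of the deposited ones in 100.0% of loci. Coordinates are mm9 with 1 added to each start.

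Values were read with Python 3.11.15 and pandas 2.3.3. Calls are the authors', at q under 0.05. Levels were summed by class, and differences were taken as log2(FPKM + 1), a scale that understates changes of low genes. Of several loci with 1 symbol, that of the highest mean was kept. Members, classes and lists were chosen with earlier results of these data known. Named are all called collagens and those of at least 1 FPKM, with others added after their values were seen, and of each other list up to 4 called genes. Of the marker lists fewer genes were named than the rule allowed, and defining markers and others that were not called were added. A gene of the basement membrane list is not reported here and was left out of its counts. Other thresholds, pseudocounts, minimum levels, choices of locus and quantile normalization were tried. Counting and scaling were checked on simulated data. Planned protein sequence features were not computed, as no protein table was used here.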

Additional observations from a re-analysis of the deposited data

How the results depend on the processing

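No paired analysis was possible because the table holds 1 pooled value per group, and for the same reason no library could be left out. The counts of 5 collagens higher and 4 lower in Nd1 held within 1.5 times at q under 0.01, at q under 0.1, at changes of at least 2-fold, with every matching locus and, an alternative chosen after seeing the data, without loci that overlap another. With at least 1 FPKM required in a group they were 3 and 1, since fewer genes qualify. At q under 0.01 Col4a2 lost its call, as did some genes of the other lists, such as Sox9, C1ql1, Lamb2, Bgn and Alpl. All 9 called collagens kept their direction after quantile normalization, which moved the median of all tested loci from -0.058 to 0.0081 on the log2(FPKM + 1) scale. Values without a test were counted as moved past 0.1 (log2). The median of tested collagens, -0.094, was -0.20 with a pseudocount of 0.01 and 0.043 after quantile normalization. The log2 ratio of the summed FPKM of all collagens, Nd1 over control, was -0.39. It was 0.19 without Col27a1, -0.20 after quantile normalization and 0.16 without overlapping loci, Col27a1 among them. For the classes, quantile normalization gave -0.76 in place of -0.90 for fibrillar, 0.20 in place of -0.052 for fibril-associated, 0.11 in place of -0.19 for basement membrane, -0.17 in place of -0.27 for beaded filament, 1.99 in place of 1.77 for hexagonal, 1.98 in place of 1.75 for multiplexin and -0.82 in place of -1.11 for transmembrane collagens. Without their highest gene the ratios were 0.057 for fibrillar, 0.20 for fibril-associated, -0.94 for beaded filament, -0.25 for hexagonal and 0.96 for multiplexin collagens. Over tested genes only they were 0.068 for fibril-associated, -0.30 for basement membrane and 3.27 for hexagonal collagens. No such value exists for beaded filament collagens and Col28a1, which were not tested, nor without the highest gene for Col28a1, which stands alone. The sums of low classes rest on values of under 1 FPKM, whose counting error is unknown. Depth, which would set that error, is not given.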
